A study of Mus musculus with 8 samples.

Results

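The 10 genes described here, Pck1, Fbxo32, Bnip3, Txnip, Sesn1, Sesn3, Cdkn1b, Ccng2, Bcl6 and Cited2, are known targets of FOXO transcription factors. They were named by symbol and read from a table of 18782 genes that had a probe set of their own, taking the brightest probe set of a gene over the 8 arrays. Thoracic perivascular adipose tissue, the fat around the chest aorta, was taken from male mice of 17 to 22 weeks that had been fasted overnight and killed at 9 in the morning. Of the 8 arrays, 4 carried the label RictoraP2KO, for deletion of a floxed Rictor gene by Cre recombinase, driven from the aP2 (Fabp4) promoter, and 4 were controls of the genotype Rictorfl/fl. That promoter is active in fat cells, and the title of the series places the deletion in brain and fat, so whole tissue also holds cells in which the gene was not targeted. In whole tissue, fewer cells of a type and less RNA per cell cannot be told apart.

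Rictor defines mTOR complex 2, the kinase complex that phosphorylates Akt on its hydrophobic motif when insulin is present. Active Akt phosphorylates FOXO factors, which then leave the nucleus, so that genes activated by FOXO are low after feeding and rise in fasting. Such targets serve fasting metabolism, breakdown of protein and mitochondria, control of growth signalling and arrest of the cell cycle. The question asked of these genes was whether loss of mTOR complex 2 raised them.

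FOXO factors bind the sequence GTAAACA, and the insulin response elements of classical targets hold TGTTTTG or TATTTTG. RefSeq promoter windows (GRCm38.p6, 250 bases before to 50 after a start) were found for 9 of the 10 genes, in 11 windows, Fbxo32 having no entry. GTAAACA on either strand stood in windows of 2 of these genes, Txnip and Sesn1, and in 3.65% of all 32851 windows. TGTTTTG stood in 1 gene, Ccng2, and in 6.28% of all windows, and TATTTTG in 0 genes and in 4.36% of all windows. At least 1 of these 3 words was found in 3 of the 11 windows, against 13.3% of all windows. The stretches with a match are printed because they show which of the genes carry the letters of a FOXO element next to a start. The match is in capitals, and CAAAACA and TGTTTAC are matches on the opposite strand. In Txnip (chr3:96557707-96557956, plus strand) the match begins 121 bases before the start and in Ccng2 (chr5:93267323-93267572, plus strand) 16 bases before it. In Sesn1 (chr10:41810585-41810613, plus strand) it begins at base 23 after the start.
Txnip: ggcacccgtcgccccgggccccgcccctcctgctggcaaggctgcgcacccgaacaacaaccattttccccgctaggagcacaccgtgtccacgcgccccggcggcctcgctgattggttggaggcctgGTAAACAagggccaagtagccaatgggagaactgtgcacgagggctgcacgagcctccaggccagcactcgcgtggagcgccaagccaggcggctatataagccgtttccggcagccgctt
Ccng2: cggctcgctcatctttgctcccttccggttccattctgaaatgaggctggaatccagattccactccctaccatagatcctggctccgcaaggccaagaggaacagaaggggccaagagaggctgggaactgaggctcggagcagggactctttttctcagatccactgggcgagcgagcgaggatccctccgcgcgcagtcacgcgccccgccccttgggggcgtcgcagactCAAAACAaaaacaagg
Sesn1: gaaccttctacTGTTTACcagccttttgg

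The promoter of Bnip3 is shown because this gene had the largest difference of the 10 in the fit to all 8 arrays. Its window on the minus strand of chr7:138909507-138909756 held none of the FOXO words. It held CACGTG, in capitals, beginning 108 bases before the start. This word, bound by clock and MYC family factors, was also in the windows of Cited2 and Bcl6 and in 7.15% of all windows. A match of letters is a description of these windows and not a site of binding.
Bnip3: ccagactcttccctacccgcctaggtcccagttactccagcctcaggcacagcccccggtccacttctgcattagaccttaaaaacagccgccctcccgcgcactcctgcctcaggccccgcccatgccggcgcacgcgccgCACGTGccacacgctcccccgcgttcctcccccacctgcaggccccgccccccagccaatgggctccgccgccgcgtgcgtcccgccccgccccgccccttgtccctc

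None of the 10 genes passed the test, a limma fit adjusted by Benjamini-Hochberg over the 28371 probe sets of the array, at a threshold of 0.05. Their smallest adjusted p in limma was 0.717, and 0 of the 10 had an unadjusted p under 0.05. Across the array 0.00352% of probe sets passed the adjusted threshold, and 6.48% of genes had an unadjusted p under 0.05. Signals are log2 values from RMA, the array's background correction, normalisation and probe summary, and differences are RictoraP2KO minus control with their standard error (SE). The difference was above 0 in 4 of the 10 genes, against 46.8% of all genes. Its median over the 10 was -0.026, and over all genes -0.0080. In all 10 genes the values of the groups overlapped. Of all genes, 1.5% lay wholly higher and 2.07% wholly lower in the arrays labelled RictoraP2KO.

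The intervals show which changes these arrays would leave possible, read against bounds of 1.5-fold and 1.2-fold that were chosen after the values were seen. The upper limit of the 95% interval lay under a 1.5-fold increase in 9 of the 10 genes, the exception being Bnip3. It lay under 1.2-fold in 5, namely Pck1, Fbxo32, Txnip, Sesn1 and Cdkn1b. For Cdkn1b the 1.2-fold bound held for the brightest probe set only, as the upper limit of its second probe set was 1.27-fold. On the other side, the lower limit stayed above the inverse of a 1.5-fold decrease in 8 genes. Standard errors of the 10 genes had a median of 0.15 on the log2 scale, against 0.090 over all genes, and their within-group standard deviation had a median of 0.24, against 0.13.

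**Figure D1:**
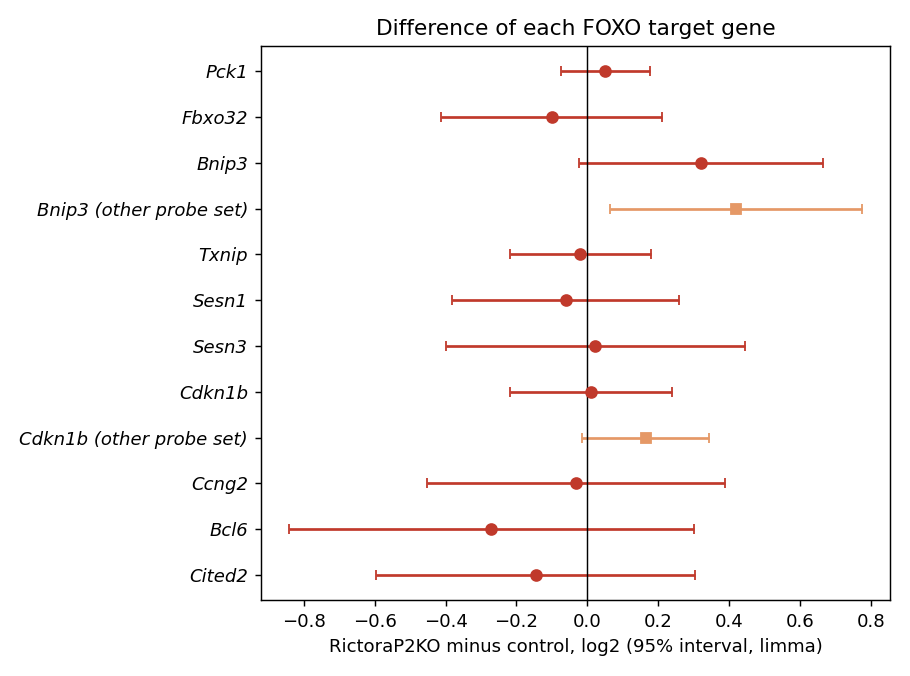
Differences of the 10 genes, RictoraP2KO minus control on the log2 scale (points), with 95% limma intervals (bars, n = 4 arrays per group). Squares mark the second probe set of Bnip3 and of Cdkn1b. The interval of every reported probe set crosses 0, while that of the second Bnip3 probe set runs from 0.06 to 0.77.

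Facts of all arrays bear on these values. Rictor itself read 6.68 ± 0.08 in the arrays labelled RictoraP2KO, not below the 6.54 ± 0.06 of those labelled control (SD, n = 4 each; difference 0.14, limma adjusted p = 0.685). The position of its probes relative to the deleted exons was not examined, so every direction here rests on the labels. The tissue label was checked on the fat markers Adipoq (10.8 to 11.1), Plin1 (10.3 to 10.6) and the brown fat markers Ucp1 (11.3 to 12.01) and Cidea (10.7 to 10.9), which were bright in all 8 arrays. Signal of other tissues was uneven, given here as a list mean of log2 deviations. Skeletal muscle markers, of which 11 of 12 were above 0, ran from -0.25 to 1.35 in the arrays labelled RictoraP2KO, where replicate 2 was highest, and from -0.22 to -0.09 in the controls. Cardiac muscle markers (3 of 11 above 0) ran from -1.15 to 1.41 in RictoraP2KO and from -0.76 to 0.65 in control arrays. Lung epithelial markers (1 of 7 above 0) stood at 2.90 in control replicate 2 and neuron markers (0 of 9) at 1.32 in control replicate 3, the other arrays lying at most at -0.30 and -0.12. The muscle myosin gene Myh4 read 4.94 in RictoraP2KO replicate 2, above the array median of 3.76, and 2.11 to 2.37 in the other 7 arrays. The lung surfactant gene Sftpc read 9.20 in control replicate 2 and 1.77 to 1.92 in the other 7 arrays. Macrophage markers (8 of 8 above 0, 0 past the adjusted threshold) ran from -0.30 to 0.01 in control arrays. RictoraP2KO replicates 1, 2 and 4 stood above all controls, at 0.40, 0.28 and 0.23, and replicate 3 at -0.26. Of the 8 markers, 3 had an unadjusted limma p under 0.05 in the higher direction, against 2.92% of all genes.

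Pck1, the enzyme that makes phosphoenolpyruvate for glyceroneogenesis in fat, was the steadiest of the 10 genes. Its log2 signal was 11.40, 11.39, 11.37 and 11.51 in RictoraP2KO replicates 1 to 4, against 11.34, 11.40, 11.39 and 11.34 in control replicates 1 to 4. All 8 arrays lay within 0.17, and RictoraP2KO replicate 4 alone stood above the rest. The difference was 0.05 (SE 0.055), or 1.04-fold with a 95% interval from 0.949 to 1.13 (limma adjusted p = 0.861). Leaving out RictoraP2KO replicate 4 gave 0.019, and 0.087 resulted when the fit omitted RictoraP2KO replicate 2 and control replicates 2 and 3. These are called below the arrays with signal of another tissue, as they stood apart for skeletal muscle, lung and neuron markers. The arrays kept were not free of such signal. Their cardiac muscle mean still ran from -1.15 in RictoraP2KO replicate 1 to 0.32 in control replicate 1.

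Fbxo32 encodes atrogin-1, a ubiquitin ligase that marks muscle protein for degradation. Its signal was 5.37, 5.86, 5.996 and 5.79 in RictoraP2KO replicates 1 to 4, against 5.66, 5.95, 6.002 and 5.81 in control replicates 1 to 4. The lowest array was RictoraP2KO replicate 1, and the remaining arrays of both groups overlapped fully. The groups differed by -0.10 (SE 0.137; limma adjusted p = 0.893), or by 0.03 without that array. RictoraP2KO replicate 2, with the strongest muscle signal, did not stand out for Fbxo32. Trim63, the other muscle ubiquitin ligase under FOXO control, averaged 2.33 ± 0.22 in RictoraP2KO and 2.37 ± 0.04 in control arrays (SD, n = 4 each), below the array median.

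Bnip3, a mitochondrial receptor for mitophagy that FOXO3 induces in muscle and HIF-1 induces in hypoxia, had the largest difference of the 10 in the fit to all 8 arrays, and in 12 of the 18 alternatives that recomputed it; Bcl6 was larger in size in 5 and Cited2 in 1. All 4 RictoraP2KO arrays lay above the control mean for Bnip3 and Pck1, and for no other reported probe set of the 10 genes. Its signal was 10.19, 10.36, 10.27 and 10.63 in RictoraP2KO replicates 1 to 4, against 9.63, 10.06, 10.31 and 10.17 in control replicates 1 to 4. Control replicate 1 was lowest and RictoraP2KO replicate 4 highest, while control replicate 3 lay above both RictoraP2KO replicates 1 and 3. The difference was 0.32 (SE 0.152), or 1.25-fold with an interval from 0.983 to 1.58, and did not pass (limma adjusted p = 0.717; exact two-sided permutation p = 0.114, where 0.0286 is the smallest possible). Without control replicate 1 the difference was 0.18, and without control replicate 3 it was 0.41.

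A second Bnip3 probe set, credited to the same transcripts in the array annotation, behaved alike at a lower signal. It read 9.74, 10.01, 9.81 and 10.14 in RictoraP2KO replicates 1 to 4, against 9.05, 9.58, 9.75 and 9.65 in control replicates 1 to 4. The groups overlapped only where RictoraP2KO replicate 1 fell below control replicate 3. The difference was 0.42 (SE 0.157), or 1.34-fold with an interval from 1.04 to 1.71 (unadjusted limma p = 0.0261, adjusted p = 0.668; exact permutation p = 0.0571). Which probes each set holds, and whether either reads a copy of the gene elsewhere in the genome, was not examined. Bnip3l, the paralog with the same role, differed by 0.09 (SE 0.068).

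**Figure D2:**
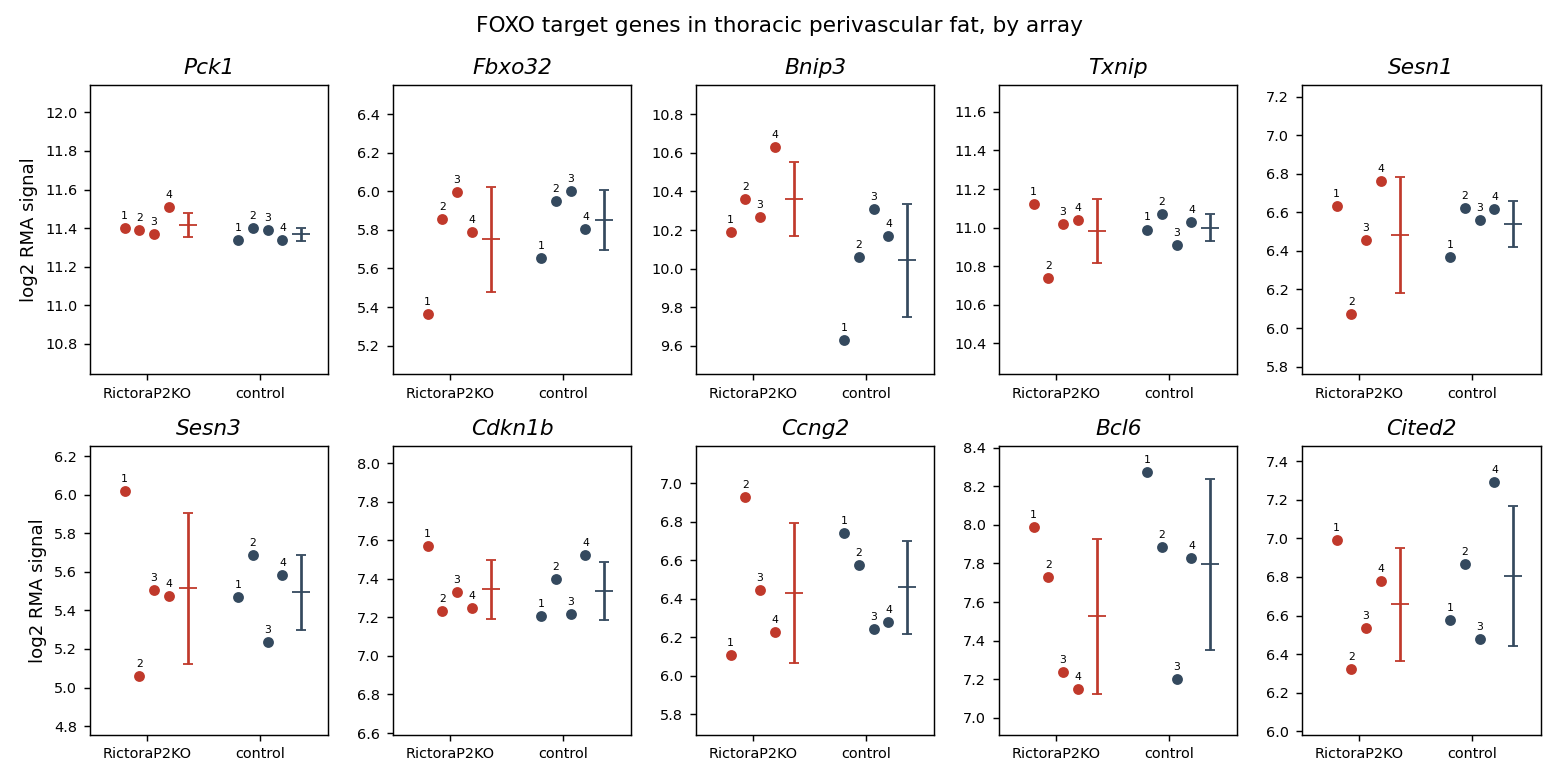
Log2 RMA signal of each of the 10 genes in the 4 RictoraP2KO arrays (red, left) and 4 control arrays (dark, right), numbered by replicate, with the group mean and SD as bars. Every panel spans the same range of 1.5 on the log2 scale, centred on that gene, and the groups overlap in each. Pck1 stays within 0.17 and Bcl6 spreads over 1.13.

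Txnip, the arrestin-like protein that binds thioredoxin and lowers glucose uptake, showed no difference beyond its spread. Its signal was 11.12, 10.74, 11.02 and 11.04 in RictoraP2KO replicates 1 to 4, against 10.99, 11.07, 10.91 and 11.03 in control replicates 1 to 4. RictoraP2KO replicate 2 was the lowest array and RictoraP2KO replicate 1 the highest, so the range of the arrays labelled RictoraP2KO enclosed that of the controls. The difference was -0.02 (SE 0.088), or 0.986-fold with an interval from 0.859 to 1.13 (limma adjusted p = 0.976).

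The sestrins restrain mTOR complex 1 when amino acids are scarce, and Sesn1 and Sesn3 are the sestrins among the 10. Sesn1 stood at 6.63, 6.07, 6.46 and 6.76 in RictoraP2KO replicates 1 to 4, against 6.37, 6.62, 6.56 and 6.62 in control replicates 1 to 4, a difference of -0.06 (SE 0.141; limma adjusted p = 0.946). Sesn3 stood at 6.02, 5.06, 5.51 and 5.48 in RictoraP2KO replicates 1 to 4, against 5.47, 5.69, 5.24 and 5.59 in control replicates 1 to 4, a difference of 0.02 (SE 0.186; limma adjusted p = 0.987). In both genes RictoraP2KO replicate 2 was lowest and the highest array also carried the label RictoraP2KO, so the spread within that group exceeded the difference between groups. Without RictoraP2KO replicate 2 the differences were 0.08 for Sesn1 and 0.17 for Sesn3.

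Sesn2, the third sestrin, which responds to amino acid and oxidative stress, is not among the 10 and is counted with the other FOXO targets below. It stood at 6.87, 7.58, 6.79 and 7.90 in RictoraP2KO replicates 1 to 4, against 6.76, 6.56, 6.61 and 6.29 in control replicates 1 to 4. The groups did not overlap, which held in this direction for 1.5% of all genes. It differed by 0.73 (SE 0.243) and did not pass (limma adjusted p = 0.651). Whether Sesn2 differs in response from Sesn1 and Sesn3 was not tested.

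Cdkn1b encodes p27, an inhibitor of cyclin-dependent kinases and a classical FOXO target. Its signal was 7.57, 7.23, 7.33 and 7.25 in RictoraP2KO replicates 1 to 4, against 7.21, 7.40, 7.22 and 7.52 in control replicates 1 to 4. One array in each group, RictoraP2KO replicate 1 and control replicate 4, stood above the rest. The difference was 0.0093 (SE 0.101), or 1.01-fold with an interval from 0.859 to 1.18 (limma adjusted p = 0.991). The second, dimmer probe set averaged 5.46 ± 0.11 in RictoraP2KO and 5.30 ± 0.11 in control arrays (SD, n = 4 each; difference 0.16, SE 0.079, limma adjusted p = 0.719), so the 2 probe sets of this gene differed in size of difference but not in call.

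Ccng2 encodes cyclin G2, which is high in resting cells and is induced by FOXO when growth signalling falls. It stood at 6.11, 6.93, 6.45 and 6.23 in RictoraP2KO replicates 1 to 4, against 6.74, 6.58, 6.24 and 6.28 in control replicates 1 to 4. RictoraP2KO replicate 2, the lowest array for Sesn1 and Sesn3, was the highest here. The difference was -0.03 (SE 0.185; limma adjusted p = 0.982).

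Bcl6, a transcriptional repressor that FOXO induces and that restrains inflammatory genes, varied most among the 10. It stood at 7.99, 7.73, 7.24 and 7.15 in RictoraP2KO replicates 1 to 4, against 8.27, 7.88, 7.20 and 7.83 in control replicates 1 to 4. The 3 arrays near 7.2, namely RictoraP2KO replicates 3 and 4 and control replicate 3, came from both groups. The difference was -0.27 (SE 0.251), or 0.83-fold with an interval from 0.558 to 1.23 (limma adjusted p = 0.839). Leaving out control replicate 3 gave -0.47 and leaving out control replicate 1 gave -0.11. Without RictoraP2KO replicate 2 and control replicates 2 and 3 it was -0.59, with a limma adjusted p = 0.969.

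Cited2 encodes a co-regulator that competes with HIF-1 for the coactivators CBP and p300. It stood at 6.99, 6.32, 6.54 and 6.78 in RictoraP2KO replicates 1 to 4, against 6.58, 6.87, 6.48 and 7.29 in control replicates 1 to 4. Control replicate 4 was highest, and without it the difference of -0.15 (SE 0.198; limma adjusted p = 0.892) became 0.02.

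The 10 genes were also compared with each other across arrays. Of the 10, 7, 4, 5 and 5 were above their own mean in RictoraP2KO replicates 1 to 4, and 3, 9, 3 and 7 in control replicates 1 to 4. The 9 were in control replicate 2, the array with lung signal. RictoraP2KO replicate 1 held the highest value of 3 genes and the lowest of 2, and RictoraP2KO replicate 2 held the highest of 1 and the lowest of 4. The median deviation of the 10 genes from their own means was 0.13, -0.054, -0.0044 and 0.018 in RictoraP2KO replicates 1 to 4 and -0.093, 0.12, -0.10 and 0.061 in control replicates 1 to 4, so these medians overlapped. Of the 45 pairs of genes, 22 had a positive correlation over the 8 arrays, and the median r was -0.015. In 8 pairs the unadjusted exact permutation p of Pearson's r was under 0.05, and in 0 after adjustment over the 45 pairs. The strongest pair was Txnip and Sesn3 (n = 8, r = 0.912, exact permutation p = 0.00129, adjusted p = 0.0580; Spearman's rho = 0.929, exact permutation p = 0.00223, adjusted p = 0.0964). Without the 2 arrays farthest from the Txnip median r was 0.928. The strongest negative pair was Sesn1 and Ccng2 (n = 8, r = -0.852, exact permutation p = 0.00603, adjusted p = 0.0913; rho = -0.810, exact permutation p = 0.0218, adjusted p = 0.140). Without the 2 arrays farthest from the Sesn1 median r was -0.375. Leaving them out also narrows the range of Sesn1, so this value cannot show whether the relation rested on them. No batch is given in the labels, and 4 arrays per group are too few for a value within each group.

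**Figure D3:**
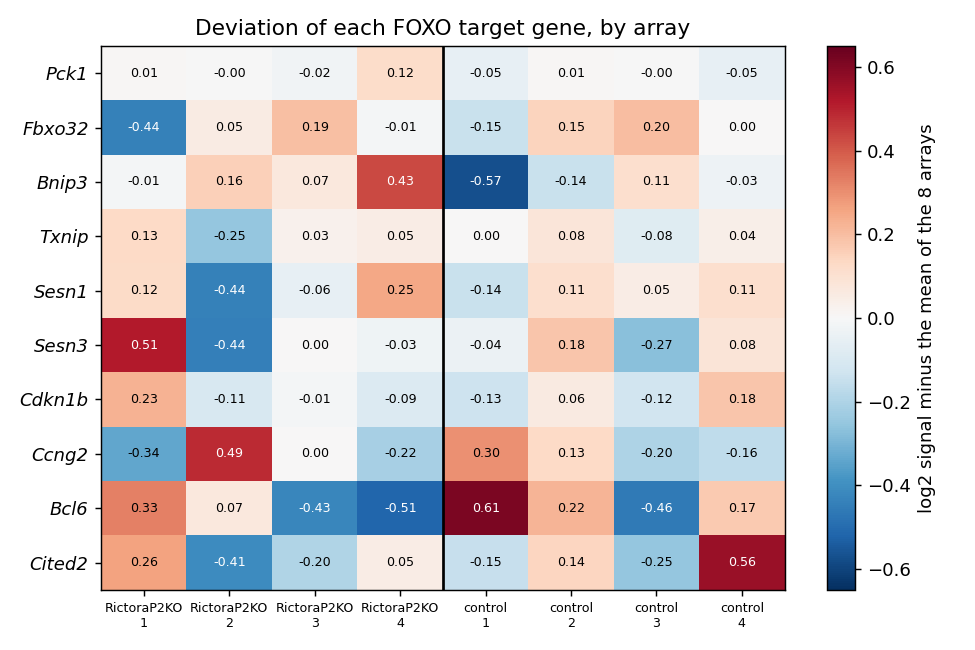
Log2 signal of each gene minus its mean over the 8 arrays (colour and printed value), with the RictoraP2KO arrays left of the line and the control arrays right of it. No column is of 1 colour throughout. RictoraP2KO replicate 2 combines low Sesn1, Sesn3 and Cited2, at -0.44, -0.44 and -0.41, with high Ccng2, at 0.49.

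Of 37 other FOXO targets, all of which were measured, 0 passed the adjusted test, 20 were above 0 and the median difference was 0.0075. Unadjusted p-values under 0.05 were found for 2 genes in each direction, where 2.92% of all genes had one in the higher and 3.56% in the lower direction. Gadd45b, a stress gene of DNA repair and growth arrest, had the smallest. It stood at 5.28, 4.14, 4.15 and 3.87 in RictoraP2KO replicates 1 to 4, against 5.99, 6.19, 4.57 and 6.12 in control replicates 1 to 4, the groups overlapping in 1 array each. The groups differed by -1.36 (SE 0.412; limma adjusted p = 0.651). The next were Sesn2, described above, and Irs2, the insulin receptor adaptor, which differed by 0.53 (SE 0.178, limma adjusted p = 0.651). The groups did not overlap in 1 of the 37 genes in the higher direction, Sesn2, and in 1 in the lower, Mxi1 (-0.26). The shares over all genes were 1.5% and 2.07%. Among 5 measured genes that FOXO represses, 3 were above 0 with a median of 0.18 and 0 passed; the smallest p-values belonged to Srebf1 (0.30), the cyclin gene Ccnd2 (0.19) and Pparg (-0.21).

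The FOXO factors themselves did not pass either. Foxo1, the main factor of fat cells, stood at 7.76, 8.28, 7.30 and 7.96 in RictoraP2KO replicates 1 to 4, against 7.57, 7.18, 7.56 and 7.47 in control replicates 1 to 4. RictoraP2KO replicate 3 lay among the controls and the other 3 above them, for a difference of 0.38 (SE 0.192; limma adjusted p = 0.732), which was 0.23 without RictoraP2KO replicate 2, 0.56 without RictoraP2KO replicate 3 and 0.15 without the 3 arrays with signal of another tissue. Foxo3 differed by 0.10 (SE 0.133), Foxo4 by -0.14 (SE 0.176) and Foxo6 by -0.079 (SE 0.074), Foxo6 below the array median in both groups. Of the list of 12 measured FOXO factors, kinases, phosphatases and other regulators, 6 were above 0 and 0 passed, and the other smallest p-values were those of the Akt phosphatase Phlpp1 (-0.14) and the kinase Sgk1 (0.24). FOXO activity is set by phosphorylation and place in the cell, which these arrays do not measure.

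Among 15 relatives of the 10 genes, 10 were above 0, the median difference was 0.073 and 0 passed the adjusted test. After Sesn2 the smallest p belonged to Arrdc3, an arrestin-like relative of Txnip that limits energy use in fat. It stood at 7.93, 7.46, 8.02 and 8.49 in RictoraP2KO replicates 1 to 4, against 7.58, 7.41, 7.39 and 7.44 in control replicates 1 to 4. RictoraP2KO replicate 2 was the only one of its group within the control range, and the difference was 0.52 (SE 0.183; limma adjusted p = 0.658). Cdkn1a, the paralog of Cdkn1b, differed by 0.27 (SE 0.167).

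**Figure D4:**
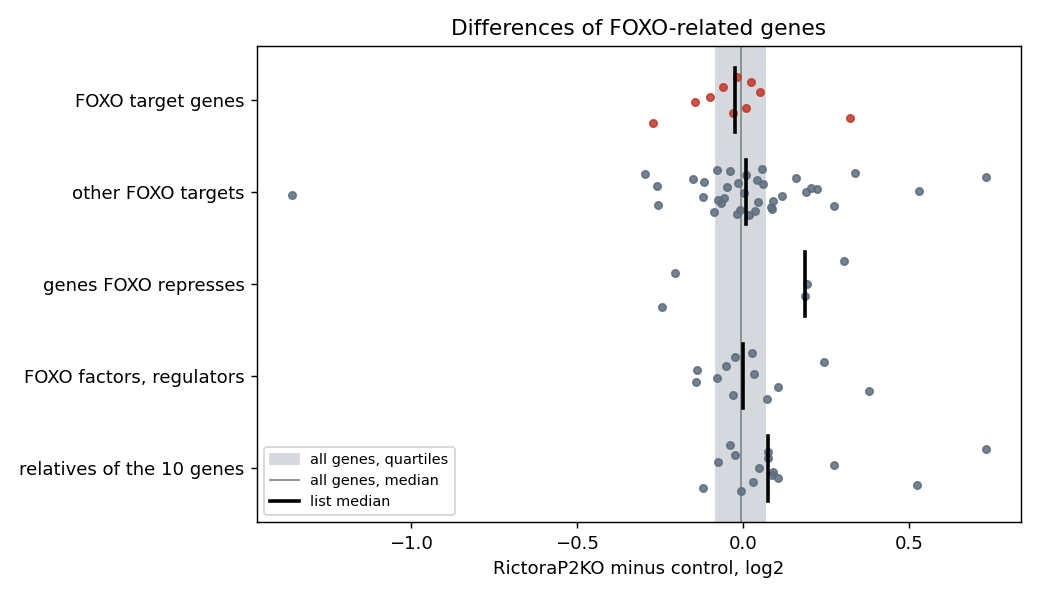
Differences of single genes (points, RictoraP2KO minus control, log2) in the 10 FOXO target genes (red) and 4 related lists (grey), with each list's median (black line) and the median and quartiles of all genes (grey line and band, -0.08 to 0.07). The 10 genes lie between -0.27 and 0.32, and the other FOXO targets reach from -1.36 (Gadd45b) to 0.73 (Sesn2).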

How the data were processed

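RNA of thoracic perivascular fat was measured on 8 Affymetrix arrays, 1 per sample, in 4 samples labelled RictoraP2KO and 4 control samples. The authors deposited log2 values of 28371 probe sets, made by RMA with version 1.10.2 of Affymetrix Power Tools (per the submitters' processing notes). RMA corrects background, normalises by quantiles and summarises probes, so a difference in total RNA output between groups would not be seen. No genome build is named in the labels. The number of arrays limits the precision. Nothing says that the samples came from separate animals, so the p-values rest on the spread between samples, which may be technical.

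In the array annotation 21158 probe sets had 1 symbol, 1881 had several and 5332 had none. Only those with 1 symbol named genes, and 1368 of 18782 genes had more than 1. All probe sets entered limma 3.58.1 (R 4.3.3, lmFit and eBayes, two-sided, no covariate, no filter); all 10 genes had a mean at or above the array median. The test was run on simulated data with known changes. For single values the two-sided exact permutation test ran over 70 assignments of the labels, and correlations by exact permutation in Python 3.11.15. Array correlations lay between 0.989 and 0.995.

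Genes named were the 10, Rictor, the FOXO factor genes and, in each of 7 pathway lists, up to 3 genes by smallest unadjusted p. Up to 4 relatives were named, and 1 marker of a cell type list where an array stood apart (Myh4, Sftpc). Trim63, Adipoq, Plin1, Ucp1, Cidea, Lep, Cidec, Fabp4, Elovl3, Ebf2 and Mxi1 fall outside the rule and were picked once their values were known. The cell type lists numbered 12. Those for skeletal and cardiac muscle, lung, neurons and macrophages are described beside the results, as are single markers of adipocytes and brown fat. The other lists, with those of adipocytes and brown fat, are described in the closing observations. The members and lists were chosen with earlier results of these data known. Alternatives were a filter on dim probe sets, renormalisation, a replicate block, median centring, array weights, robust eBayes, limma-trend, other probe set choices, an adjusted p under 0.1, each array left out, and 3 arrays left out together. Same-numbered arrays of the groups correlated in their deviations between -0.15 and 0.087, and the labels do not pair them.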

Additional observations from a re-analysis of the deposited data

Results flagged for a closer look

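In each group of 4 arrays, the array farthest from the others was tested by Dixon's ratio of its gap to the range of the group, at the 95% critical value for 4 arrays, which chance passes in about 1 group of 20. Over the 10 genes and the second probe sets of Bnip3 and Cdkn1b, 0 of 24 groups passed. Over the other genes named, 6 of 70 passed, and over the means of the cell type lists 4 of 24. Myh4 and Sftpc were named because an array stood apart in their lists. Trim63, Adipoq, Plin1, Ucp1, Cidea, Lep and Cidec were picked once their values were known, and the lists with earlier results known. These counts therefore cannot be set against the share that chance passes. Fabp4, Elovl3, Ebf2 and Mxi1 were not put to this test.

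RictoraP2KO replicate 2 stood alone for Myh4 (4.94, against 2.13 to 2.21 in the rest of its group), for the mean of the skeletal muscle markers (1.35, against -0.25 to -0.20) and for the lipogenic gene Acly (7.03, against 8.51 to 8.68). Control replicate 2 stood alone for Sftpc (9.20) and the mean of the lung markers (2.90, against -0.57 to -0.30 in the other controls), and control replicate 3 for the mean of the neuron markers (1.32) and for Gadd45b (4.57, against 5.99 to 6.19). RictoraP2KO replicate 1 stood alone for the mean of the adipocyte markers (0.32), RictoraP2KO replicate 3 for Sgk1 (7.20, against 7.98 to 8.11) and control replicate 4 for Trim63 (2.43, against 2.35 to 2.36). Without control replicate 3 the difference of Gadd45b was -1.74, without RictoraP2KO replicate 2 that of Acly was -0.15 (and -0.87 without control replicate 3), and without RictoraP2KO replicate 3 that of Sgk1 was 0.45.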

How the results depend on the processing

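None of the 10 genes passed under any of the 19 alternatives, the smallest limma adjusted p being 0.650, for Bnip3 without RictoraP2KO replicate 3. Of 180 recomputed differences of single genes, 163 kept their sign and 17 changed it; Pck1, Bnip3 and Bcl6 kept theirs throughout. Leaving out 1 array, the median difference of the 10 genes ran from -0.066 to 0.053 and that of the other FOXO targets from 0.0012 to 0.013. The number of genes above 0 among the 10 ran from 2 without control replicate 3 to 6 without RictoraP2KO replicate 2 or control replicate 2. Differences then ran from 0.019 to 0.066 for Pck1, 0.18 to 0.41 for Bnip3, -0.47 to -0.11 for Bcl6, -0.18 to 0.028 for Fbxo32, -0.067 to 0.060 for Txnip, -0.15 to 0.076 for Sesn1, -0.15 to 0.17 for Sesn3, -0.065 to 0.071 for Cdkn1b, -0.20 to 0.075 for Ccng2 and -0.26 to 0.016 for Cited2. Without the 3 arrays with signal of another tissue 6 of the 10 were above 0, the signs of Txnip (0.05) and Sesn1 (0.12) turned, the median was 0.034, and Bcl6 and Ccng2 stood at -0.59 and -0.25. With array weights the difference of Cdkn1b was -0.015. The causes of these turns were not tested.

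Over all 28371 probe sets 1 passed; 0 passed with the replicate number as a block, without dim probe sets and without the 3 arrays, and between 0 and 5 passed when 1 array was left out, the 5 without RictoraP2KO replicate 1. Of the 10 genes 0 passed with the replicate block. With the block the unadjusted limma p fell from 0.065 to 0.030 for Bnip3, from 0.31 to 0.074 for Bcl6 and from 0.48 to 0.24 for Fbxo32. For Pck1 it rose from 0.39 to 0.49. Whether same-numbered arrays belong together is not known. Correlations of deviations over all probe sets cannot show whether single genes share an effect.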

Other observations

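Several of the 10 genes answer to regulators other than FOXO, and lists of genes under those regulators were read from the same test; in each list 0 genes passed the adjusted threshold. Of 14 HIF target genes, which share hypoxia control with Bnip3, 6 were above 0 with a median difference of -0.085; the smallest p-values belonged to the peptide hormone gene Adm (0.51), the oxygen sensor gene Egln3 (-0.26) and the lactate dehydrogenase gene Ldha (-0.17). Of 12 measured p53 targets, which include Sesn2 and share p53 control with Sesn1, 7 were above 0 with a median of 0.062, and after Sesn2 the smallest p-values belonged to Phlda3 (-0.23) and Cdkn1a (0.27). Of 10 genes of the ChREBP list, 3 were above 0 with a median of -0.060; Mlxipl, which encodes ChREBP, a glucose-responsive activator of Txnip, differed by -0.25 (SE 0.108; limma adjusted p = 0.678), followed by Acacb (-0.16) and Acly (-0.54). Of 8 measured genes of glyceroneogenesis and fasting lipid use, beside Pck1, 2 were above 0 with a median of -0.034, and Angptl4 differed by -0.28, Plin5 by -0.25 and the glycerol channel gene Aqp7 by -0.083.

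Among the remaining cell type lists, 7 of 7 B cell and lymph node markers and 7 of 7 thymus and T cell markers were above 0, with medians of 0.23 and 0.19, and RictoraP2KO replicate 2 was the highest array for both, at 0.58 and 0.39. Of 7 endothelial markers 4 were above 0 (median 0.072), of 7 smooth muscle markers 2 (median -0.14) and of 5 mesothelial markers 3 (median 0.018). Adipocyte markers (5 of 7 above 0, median 0.015) and brown fat markers (3 of 8, median -0.035) were also read. RictoraP2KO replicate 1 had the highest adipocyte mean, 0.32, but a median of -0.021 over the same markers there. Lep read 5.81 in that array and 2.74 to 3.76 in the others. Other adipocyte markers went both ways there. Adipoq (10.85) and Cidec (10.96) were at their lowest of the 8 arrays, and Fabp4 (11.79) was at its highest. That array also had the lowest brown fat mean, -0.50, with a median of -0.18 over the same markers there. Elovl3 was lowest in it, at 6.84 against 8.29 to 10.75 in the others, while Ebf2 was highest, at 9.30. RictoraP2KO replicate 1 also held the lowest Fbxo32 and Ccng2 and the highest Txnip, Sesn3 and Cdkn1b of the 8 arrays. The part of these tissue signals in the values of the 10 genes was not tested beyond leaving out arrays.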
